A study of Mus musculus with 47 samples.

Results

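The binding sites of FOSB after 48 h of TGFβ1 were described in Pbrm1 KO cells and in control cells of the mouse mammary epithelial line NMuMG. All peaks of both FOSB peak lists were taken, 31 in Pbrm1 KO cells and 188 in control cells, out of 806216 peaks in the 32 lists of the series. Peaks that overlapped by at least 1 bp were called shared. That gave 16 KO-only peaks, 15 shared peaks and 173 control-only peaks, and the peaks were named by the protein-coding gene they lie in or, outside genes, by the nearest gene.

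The series profiled transcription factors, subunits of the SWI/SNF chromatin remodeller and histone marks by ChIP-seq, which sequences the DNA bound by a protein, in Pbrm1 KO and control NMuMG cells. The FOSB groups were Pbrm1 KO cells treated with TGFβ1 at 5 ng/ml for 48 h and control cells treated in the same way, with 1 library each, and the same genotypes without TGFβ1 (0 h). The library names carry sgPbrm1 for the KO and sgCt for the control, and whether the KO line was a clone or a pool was not given in the sources used here. No list measures Pbrm1 itself, so the knockout was not checked. BRG1 was profiled only in untreated control cells (1 library), so an overlap with BRG1 is with its binding before TGFβ1 and with Pbrm1 intact. In untreated control cells H3K4me3, a mark of active starts, lay within 2 kb of a gene end at 32 of 35 epithelial genes, Cdh1, Epcam, Krt8 and Krt18 among them, at 8 of 22 markers of other cell types and at 63.0% of all genes, with Ptprc and Pecam1 unmarked.

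FOSB is a member of the AP-1 family, in which a FOS protein pairs with a JUN protein and binds the sequence TGAGTCA or its reverse complement TGACTCA. FOSL2 is a FOS protein of the same family, and ATF3 is a related factor that can also bind TGACGTCA, the element of the cyclic AMP response. BRG1 is the ATPase of SWI/SNF, and PBRM1 and PHF10 are subunits found in its PBAF form. TGFβ1 drives NMuMG cells into epithelial-mesenchymal transition, in which they lose epithelial junctions and gain mesenchymal genes.

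Promoter sequence was read at the peaks that overlapped a RefSeq promoter window (GRCm38.p6, the mm10 build of the peaks), since bases are given only there. A window can run past its peak. A peak can also overlap a window without reaching its start, as the Snai1 peak does at Gm11476. The first is the Dynll1 promoter (chr5:115300991-115301240, minus strand), the strongest shared peak by fold enrichment. The next 4 are promoters under control-only peaks that hold the AP-1 sequence, at Srxn1 (chr2:152105274-152105523, plus strand), Adgrg1 (chr8:94984149-94984398, plus strand), Tnfaip3 (chr10:19015411-19015660, minus strand) and A530046M15Rik (chr13:15806993-15807242, plus strand). Herpud1 (chr8:94386179-94386428, plus strand) and Txnip (chr3:96557707-96557956, plus strand) are control-only promoters without it and without FOSL2. Each line gives the 250 bases before the start, 5′ to 3′, with TGAGTCA or TGACTCA in capitals.
Dynll1: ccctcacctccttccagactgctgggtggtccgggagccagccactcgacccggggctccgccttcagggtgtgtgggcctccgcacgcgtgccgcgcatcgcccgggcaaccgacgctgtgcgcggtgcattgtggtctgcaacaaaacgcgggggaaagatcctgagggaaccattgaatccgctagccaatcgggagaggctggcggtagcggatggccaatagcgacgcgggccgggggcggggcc
Srxn1: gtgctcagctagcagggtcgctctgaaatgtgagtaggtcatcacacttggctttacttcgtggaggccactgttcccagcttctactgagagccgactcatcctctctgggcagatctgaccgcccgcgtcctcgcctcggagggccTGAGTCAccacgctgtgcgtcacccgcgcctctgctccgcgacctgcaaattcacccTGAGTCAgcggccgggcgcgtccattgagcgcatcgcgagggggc
Adgrg1: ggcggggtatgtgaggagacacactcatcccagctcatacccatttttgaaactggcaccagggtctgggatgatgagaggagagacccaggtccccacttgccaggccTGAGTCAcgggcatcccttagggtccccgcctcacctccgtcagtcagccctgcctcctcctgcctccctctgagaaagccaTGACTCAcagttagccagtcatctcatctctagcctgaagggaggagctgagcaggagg
Tnfaip3: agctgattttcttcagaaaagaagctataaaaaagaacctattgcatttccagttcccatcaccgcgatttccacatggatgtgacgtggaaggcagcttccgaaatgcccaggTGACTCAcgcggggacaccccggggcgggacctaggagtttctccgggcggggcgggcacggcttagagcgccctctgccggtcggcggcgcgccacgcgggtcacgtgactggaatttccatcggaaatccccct
A530046M15Rik: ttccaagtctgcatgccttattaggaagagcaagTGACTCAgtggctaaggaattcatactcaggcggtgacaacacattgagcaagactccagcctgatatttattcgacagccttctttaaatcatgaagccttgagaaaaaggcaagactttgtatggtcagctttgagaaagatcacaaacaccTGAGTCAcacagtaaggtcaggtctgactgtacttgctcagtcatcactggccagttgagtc
Herpud1: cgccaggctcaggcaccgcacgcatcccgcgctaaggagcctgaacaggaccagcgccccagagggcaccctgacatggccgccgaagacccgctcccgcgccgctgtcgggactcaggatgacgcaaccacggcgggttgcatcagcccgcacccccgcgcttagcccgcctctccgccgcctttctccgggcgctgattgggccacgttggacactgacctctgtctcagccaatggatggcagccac
Txnip: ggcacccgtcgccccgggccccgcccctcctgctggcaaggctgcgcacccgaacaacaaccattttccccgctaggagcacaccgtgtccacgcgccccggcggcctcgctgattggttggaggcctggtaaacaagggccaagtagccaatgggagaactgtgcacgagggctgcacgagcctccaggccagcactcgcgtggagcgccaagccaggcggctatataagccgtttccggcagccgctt
The Dynll1, Herpud1 and Txnip lines have no capitals, Srxn1, Adgrg1 and A530046M15Rik have a pair of matches each, and Tnfaip3 has a single match.

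A pair of shorter stretches of 30 bases shows the match at the only KO-only promoter peak, Rtn4 (chr11:29692902-29692931, plus strand, AP-1 sequence in capitals), and the TGACGTCA in capitals at the control-only Atg5 promoter (chr10:44268327-44268356, plus strand).
Rtn4: tgccgggaaggTGAGTCAcgccaaactggg
Atg5: cgtggtcttggTGACGTCAtctccgggcgc
TGACGTCA does not contain TGAGTCA or TGACTCA, so no stretch is counted under both motifs.

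FOSB had 31 peaks in Pbrm1 KO cells and 188 in control cells at 48 h, a log2 ratio of -2.60 (95% interval -3.20 to -2.05, exact binomial). At 0 h the FOSB lists held 2 peaks in Pbrm1 KO cells and 4 in control cells. FOSL2 went the other way at 48 h, with 7381 peaks in Pbrm1 KO cells and 3444 in control cells. With 1 library per genotype there is no spread between libraries and no test, every interval covers counting error only, and read depth is unknown. A site missing from a list is therefore one that the authors' caller did not report, and is not shown to be unbound. The lowest −log10 p in the list was 7.65 in Pbrm1 KO cells and 5.71 in control cells, and with both lists held to 7.65 the numbers were 31 and 173 (log2 ratio -2.48).

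Median enrichment and pileup of the listed peaks were similar in the 2 lists. Each list holds only peaks that passed the caller's cut, so these medians do not compare the same sites between genotypes. Median fold enrichment, the authors' ratio of the ChIP library over its background, was 5.26 in the KO list and 5.28 in the control list, and the median pileup, the number of reads stacked at the peak, was 22 in Pbrm1 KO cells and 21 in control cells. A gene start lay within 2 kb of 2 of 31 KO peaks (6.45%) and 19 of 188 control peaks (10.1%), beside 225 of 3444 control FOSL2 peaks (6.53%). Most sites in both lists were thus away from gene starts.

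**Figure D1:**
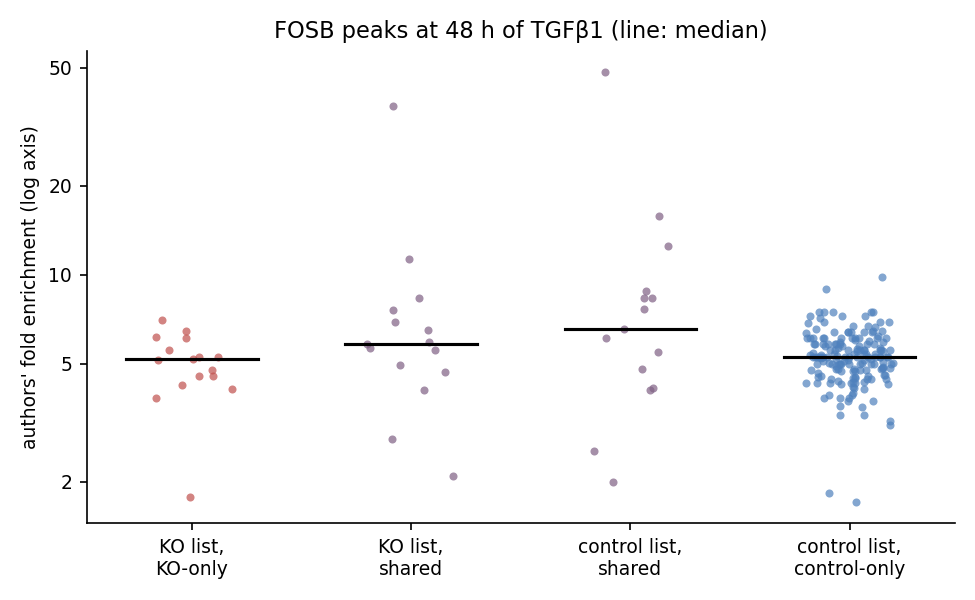
Authors' fold enrichment (log axis) of each FOSB peak at 48 h, by list and by class; the line is the median. KO-only and control-only peaks have medians of 5.18 and 5.28, and the strongest values in both lists are those of shared peaks, with Dynll1 at 37.1 in the KO list and 48.3 in the control list.

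The 15 shared peaks were 48.4% of the KO list (interval 30.2 to 66.9%) and 7.98% of the control list (4.53 to 12.8%). Their summits lay within 50 bp of each other in 14 of 15 pairs, with a median distance of 26 bp. The 7 control peaks with the highest −log10 q, the significance after correction for many sites, were all shared. The top 3 of them, Lrrc4c, Rpusd4 and Dynll1, were also in the control FOSB list at 0 h. After these 7 came the control-only peaks at Zcchc2 and Krt8. Of the 31 strongest control peaks, 11 were in the KO list (35.5%). Pileup was lower in Pbrm1 KO cells at 13 of the 15 and higher at Ankrd12 and Tomm20. The libraries were not scaled to each other, so the values are set side by side only.

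Dynll1 encodes a light chain of the dynein motor. Its promoter peak (chr5:115300859-115301260) had a pileup of 126 and 37.1-fold enrichment in Pbrm1 KO cells, and a pileup of 173 and 48.3-fold enrichment in control cells. It was the only shared site at a gene start. The same site was in the FOSB lists of both genotypes at 0 h, in no FOSL2 list and not in the BRG1 list. It was in the PHF10 and ATF3 lists of both genotypes at 48 h, and as printed it has no AP-1 match before the start.

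A further pair of shared peaks had very high pileup and low enrichment. The peak nearest to Lrrc4c, a synaptic adhesion gene, lay 1034920 bp outside it (chr2:98666592-98667304), with a pileup of 19899 and 2.78-fold enrichment in Pbrm1 KO cells, and 20233 and 2.54-fold in control cells. The peak 29340 bp from Rpusd4, a pseudouridine synthase gene (chr9:35305297-35305554), had 9181 and 2.09-fold in Pbrm1 KO cells, and 10071 and 2.00-fold in control cells. The Lrrc4c site was present in all 30 of the other lists and the Rpusd4 site in 21 of them. Both were in the control FOSB list at 0 h, before TGFβ1. Leaving out peaks with a pileup over 100 and under 3-fold enrichment gave 28 KO and 184 control peaks (log2 ratio -2.72).

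The other 12 shared peaks were away from gene starts and absent from both FOSB lists at 0 h. The strongest in control cells lay in Nell2, which encodes a secreted glycoprotein with EGF-like repeats (chr15:95276572-95276992). It had a pileup of 38 and 8.36-fold enrichment in Pbrm1 KO cells, and 58 and 15.8-fold in control cells. It was not in the BRG1 list, and FOSL2 was 59.5-fold enriched there in Pbrm1 KO cells and 46.8-fold in control cells. Camk2d, which encodes a calmodulin-dependent kinase (chr3:126661089-126661311), had 24 and 6.49-fold in Pbrm1 KO cells, and 44 and 12.5-fold in control cells, at a BRG1 peak. Atxn1, the gene of a polyglutamine protein mutated in spinocerebellar ataxia (chr13:45623911-45624263), had 25 and 7.60-fold in Pbrm1 KO cells, and 45 and 8.33-fold in control cells, without BRG1. These 3 sites lie inside their genes, 57132, 64138 and 74156 bp from the nearest start.

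Gal encodes the neuropeptide galanin, and its peak 4765 bp away (chr19:3419309-3419615) had a pileup of 25 and 5.57-fold enrichment in Pbrm1 KO cells, and 41 and 8.81-fold in control cells, with BRG1. Noct encodes nocturnin, a clock-controlled phosphatase, and its peak 28892 bp away (chr3:51195331-51195555) had 18 and 4.07-fold in Pbrm1 KO cells, and 29 and 7.64-fold in control cells, with BRG1. Psat1, an enzyme of serine synthesis, was nearest to a peak 549716 bp away (chr19:15355174-15355407) with 27 and 5.93-fold in Pbrm1 KO cells, and 32 and 6.55-fold in control cells, without BRG1. In these 3 the enrichment was the lower value in Pbrm1 KO cells, as it was at Dynll1, Nell2, Camk2d and Atxn1. The peak 81754 bp from Ywhaz, a phosphoserine-binding adaptor gene (chr15:36884738-36884982), had 17 and 4.67-fold in Pbrm1 KO cells, and 27 and 6.13-fold in control cells, with BRG1.

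At 5 shared sites the enrichment was the higher value in Pbrm1 KO cells, beside the 2 high-pileup sites. The peak between Ankrd12 and Twsg1, a BMP-binding protein gene, lay 3611 bp from Ankrd12 (chr17:65961498-65962092) and had a pileup of 38 and 11.3-fold enrichment in Pbrm1 KO cells, and 30 and 8.35-fold in control cells. Gm8127 (chr14:43278136-43278439, 9849 bp away) had 37 and 6.93-fold in Pbrm1 KO cells, and 40 and 4.08-fold in control cells. Tomm20, an import receptor of the outer mitochondrial membrane (chr8:126849618-126849844, 80820 bp away), had 19 and 5.85-fold in Pbrm1 KO cells, and 17 and 4.81-fold in control cells. All 3 overlapped BRG1. Npas4, an activity-dependent transcription factor of neurons (chr19:4993027-4993266, inside the gene), had 25 and 5.63-fold in Pbrm1 KO cells, and 27 and 5.49-fold in control cells, with BRG1. Tmem252 (chr19:24615910-24616164, 57844 bp away) had 23 and 4.95-fold in Pbrm1 KO cells, and 24 and 4.15-fold in control cells, with BRG1. In all, BRG1 was at 10 of the 15 shared sites, where 50.5% of all control FOSL2 peaks had it, and was not at Dynll1, Rpusd4, Nell2, Atxn1 and Psat1.

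**Figure D2:**
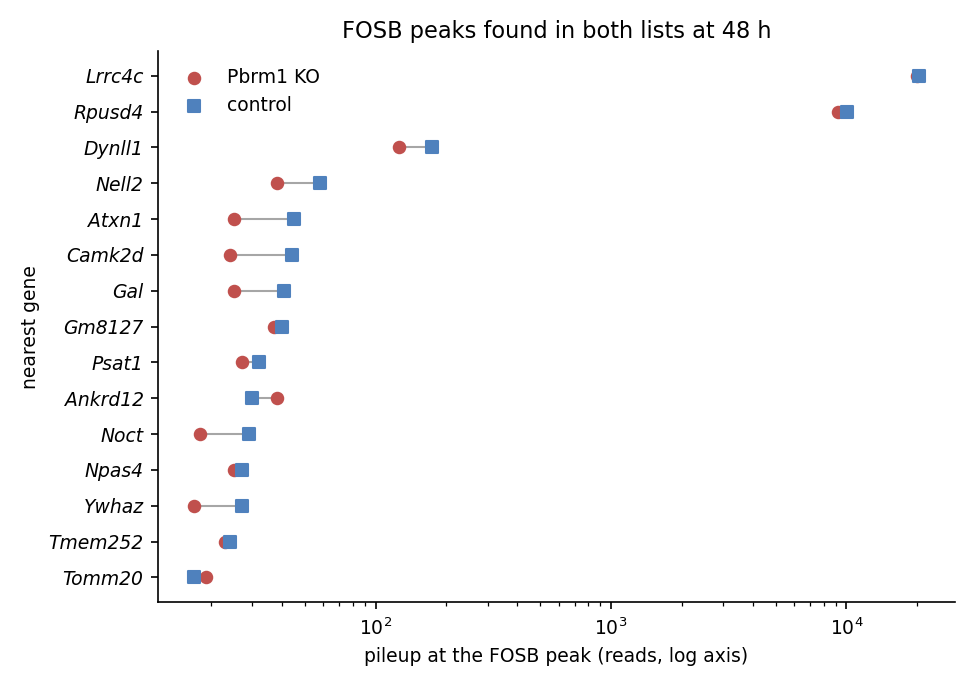
Pileup (log axis) at the 15 shared FOSB peaks in Pbrm1 KO cells (circles) and control cells (squares), ordered by the control value. The KO value lies left of the control value at 13 peaks and right of it at Ankrd12 and Tomm20, and Lrrc4c and Rpusd4 stand apart by their pileup.

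The 16 KO-only peaks had 1.78- to 7.01-fold enrichment and, except for the first, a pileup of 17 to 24. The first was a high-pileup site 310667 bp from Alkbh8, a tRNA methyltransferase gene (chr9:3024079-3024564), with a pileup of 518 and 1.78-fold enrichment. It was KO-only for FOSB, but it was in every PHF10 list, those of untreated control cells included. Its BRG1 peak had 1.34-fold enrichment. The strongest by enrichment covered the start of Rtn4, which encodes a reticulon of the endoplasmic reticulum (chr11:29692791-29693018), with a pileup of 23 and 7.01-fold enrichment. It was the only KO-only peak within 2 kb of a start, and the printed AP-1 match lies 15 bases after that start.

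The genes of the KO-only sites were grouped by known role after their values were seen, with no test. Ptk2, the focal adhesion kinase (chr15:73434927-73435152, 11107 bp away), had 5.17-fold enrichment, and Plec, the cytoskeletal linker plectin (chr15:76196290-76196543, inside), had 4.25-fold. Ltbp3, a latent TGFβ-binding protein (chr19:5743613-5743840, inside, 2713 bp from the start), had 4.54-fold. Mafk, a small MAF protein that pairs with other leucine-zipper factors (chr5:139797019-139797253, inside, 5483 bp from the start), had 6.14-fold. Anks1, an adaptor of Eph receptors (chr17:27976286-27976543, inside), had 6.43-fold, and the ubiquitin ligase gene Cblb (chr16:52179948-52180234, inside) 5.19-fold. None of these 6 exceeded the 6.43-fold of Anks1.

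The other KO-only sites lay at genes of RNA and of other processes. Nanos3, a germ-cell RNA-binding protein (chr8:84192063-84192293, 15511 bp away), had 6.10-fold enrichment, and Msi2, an RNA-binding protein of progenitor cells (chr11:88495858-88496097, inside), had 4.75-fold. Rbm20, a splicing regulator of titin (chr19:53731840-53732109, inside), had 4.10-fold, Ccnl1, a cyclin linked to splicing (chr3:65922525-65922835, 23073 bp away), had 5.26-fold, and Arid5a, a nucleic acid-binding protein (chr1:36325947-36326180, 1910 bp away), had 3.83-fold. Il18rap, a subunit of an interleukin receptor (chr1:40542541-40542817, inside), had 5.55-fold, and Tmem230 (chr2:132212417-132212648, 26844 bp away) 5.26-fold. Tmc1, a channel gene of hair cells, was nearest to a KO-only peak (chr19:21106230-21106548, 4.55-fold) that lay 1351 bp from a control-only peak, the only such pair within 20 kb. BRG1 was at all 16 sites except Cblb, and 11 sites had BRG1 and FOSL2 of both genotypes.

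The 173 control-only peaks fell at 165 genes, 94 inside a gene and 18 within 2 kb of a start. Their enrichment was 1.71- to 9.86-fold (median 5.28). BRG1 was at 135 of them. The 30 strongest by −log10 q, extended to 34 because 5 were tied at the end, had 27 with BRG1 and 7 without.

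The strongest lay inside Zcchc2, a zinc-finger gene (chr1:106000731-106001055), with a pileup of 35, 9.86-fold enrichment and a −log10 q of 21.5, at BRG1 and without FOSL2. The next lay 944 bp from Krt8, a keratin of simple epithelia (chr15:102005286-102005638), with a pileup of 33, 8.97-fold enrichment and a −log10 q of 18.6, at BRG1 and with FOSL2 15.4-fold enriched in Pbrm1 KO cells and 13.3-fold in control cells. Neither had a FOSB peak in the KO list within 20 kb. Ccnd3, a D-type cyclin (chr17:47511154-47511434, inside), had 7.15-fold enrichment and a −log10 q of 14.2, and Kank1, an adaptor of focal adhesions (chr19:25428340-25428634, inside), had a pileup of 33 and 6.88-fold enrichment. Both had BRG1 and FOSL2 of both genotypes.

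Several strong control-only sites lay at genes of adhesion, matrix and the cytoskeleton. Has1, a hyaluronan synthase (chr17:17845579-17845781, inside), had 7.50-fold enrichment and a −log10 q of 12.1, with BRG1. Src, the tyrosine kinase (chr2:157457549-157457811, inside), had 7.22-fold and 11.1, with BRG1. Dst, the linker dystonin (chr1:34186051-34186339, inside), the integrin subunit gene Itgb1 (chr8:128666907-128667276, 18378 bp away) and Mical2, an actin-oxidising enzyme (chr7:112332464-112332780, inside), each had 6.95-fold and 10.2, without BRG1. All of these except Has1 had FOSL2 in Pbrm1 KO cells.

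Others lay at transcription and chromatin genes. Nfatc2, a calcineurin-regulated factor (chr2:168414153-168414426, 61984 bp away), had 7.50-fold enrichment and a −log10 q of 12.1, with BRG1. Tle4, a Groucho co-repressor (chr19:14655358-14655718, 57175 bp away), had 5.93-fold and 9.37, with BRG1, and Mllt3, a reader of acylated histones (chr4:87841010-87841242, inside), had 6.73-fold and 9.78, without BRG1 or FOSL2. Atf3, the factor also profiled in the series, was nearest to a peak 40986 bp away (chr1:191224319-191224659) with 6.39-fold and 8.34, with BRG1 and FOSL2 of both genotypes.

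Genes of signalling and secretion made up another set. Rheb, a GTPase that activates mTOR (chr5:24821541-24821763, inside), and Tafa5, a secreted chemokine-like protein (chr15:87654514-87654843, inside), each had 7.22-fold enrichment and a −log10 q of 11.1, with BRG1. Gucy2g, a guanylate cyclase (chr19:55232152-55232415, inside), had 6.57-fold and 11.1, with BRG1. Anxa1, a phospholipid-binding annexin (chr19:20393642-20393862, 2971 bp away), had 5.57-fold and 9.30, with BRG1, and FOSL2 there was 33.8-fold enriched in Pbrm1 KO cells and 18.9-fold in control cells. That was the highest KO FOSL2 enrichment at any control-only FOSB site. Osm, the cytokine oncostatin M (chr11:4229657-4229961, 6824 bp away, no BRG1), Gpr19, an orphan receptor (chr6:134904291-134904505, 6097 bp away, BRG1), Rnf39 (chr17:36942502-36942732, 319 bp away, BRG1) and Clec16a (chr16:10754579-10754869, 9701 bp away, BRG1) were tied with Atf3 at 6.39-fold and 8.34.

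Genes of metabolism, stress and membranes followed. Cpt1a, which admits fatty acids to mitochondria (chr19:3334078-3334379, inside), had 6.48-fold enrichment and a −log10 q of 11.8, with BRG1. Lyplal1, a lysophospholipase-like enzyme (chr1:186289207-186289444, 171897 bp away), had 7.50-fold and 12.1, without BRG1. Marchf4, a membrane ubiquitin ligase (chr1:72449799-72450024, inside), and D16Ertd472e (chr16:78619498-78619736, 42810 bp away) also had 7.50-fold and 12.1, with BRG1. Srxn1, the antioxidant enzyme sulfiredoxin (chr2:152105374-152105605, over the start), had 6.67-fold and 9.23, with BRG1, and Herpud1, a protein of endoplasmic reticulum stress (chr8:94386235-94386463, over the start), had 6.41-fold and 8.77, without BRG1. Srxn1 had FOSL2 in both genotypes and Herpud1 in neither.

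The remaining strong sites were Tspo, a protein of the outer mitochondrial membrane (chr15:83565539-83565755, 6.35-fold and 8.66), and Ehd1, a protein of endocytic recycling (chr19:6297683-6297949, 4.93-fold and 8.45), both inside their genes and with BRG1. Prune2 (chr19:17140482-17140695, 5.14-fold and 9.29), Ttc39a (chr4:109433788-109434012, 6.73-fold and 9.78) and Npcd (chr15:79813752-79813971, 6.46-fold and 8.87) were likewise inside and with BRG1. Tmc1 (chr19:21104671-21104879, 5.38-fold and 11.4) was outside its gene with BRG1, and Sfi1, a centrosome gene (chr11:3159709-3159929), held a high-pileup site of 238 with 1.71-fold enrichment.

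The other 139 control-only peaks had 1.83- to 6.19-fold enrichment, and 108 of them overlapped BRG1. They were sorted by the known roles of their genes after the values were seen, to name them and without a test. At transcription and chromatin genes, 15 of 18 had BRG1, with 4.17- to 6.11-fold enrichment. The 15 were Snai1, the repressor of E-cadherin, Hes1, a Notch target, Gli3, a Hedgehog factor, Tcf7l2, a Wnt factor, Rara, a retinoic acid receptor, Cebpb, Sox5, Dlx2, Eya1, Irf2bp2, Zfp217, Zfp469, Zfp706, Tet2, which oxidises methylated DNA, and Kdm2a, a histone demethylase. Bcl6, Mcrs1 and another Tle4 peak had none. The Snai1 peak (chr2:167552881-167553101) had 6.11-fold enrichment, 10067 bp outside the gene.

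At genes of adhesion, matrix and the cytoskeleton, 21 of 26 peaks had BRG1, with 3.73- to 6.11-fold enrichment over the 26. Those with BRG1 lay at the focal adhesion genes Pxn and Bcar1, the junction genes Pkp1, Cldn4 and Cdh6, the matrix genes Fn1, Reln and Hpse2, and the genes Tpm1, Add2, Inf2, Trio, Elmo1 and Cdc42ep4, which act on actin or cell shape. Further sites lay at Sh3pxd2b, a scaffold of podosomes, Fer, a tyrosine kinase, Gas2l1 and Kif11, which act on microtubules, and Ahnak, with a pair of peaks. Those without BRG1 were at the catenin gene Ctnnd1, Rhov, Frmd6, Iglon5 and Cemip2, a hyaluronidase gene. The Fn1 and Tpm1 peaks lay 240398 and 56322 bp from their genes, so a nearest gene is a label for the site and not a measured target.

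At signalling genes 22 of 27 peaks had BRG1, with 3.10- to 6.11-fold enrichment. The 22 included the ligands Csf1 and Wnt7b, the receptors Il1r1, Tnfrsf12a, Adgrg1, Flt4, Ptger4, Gfra1 and Vldlr, and the kinases and kinase regulators Dyrk3, Nek6, Ksr1, Trib1, Phlpp1, Akap7 and Bcr. Gnaq, Rin1, Sipa1l2, Phlda1, Frmd8 and Pmepa1, a TGFβ-induced inhibitor of SMAD signalling, completed them. Camk1g, Ghr, the growth hormone receptor, Map2k6, a kinase of the stress-activated pathway, Tnfaip3, an inhibitor of NF-kB, and Plxdc2 had no BRG1. All 5 of these had FOSL2 in Pbrm1 KO cells.

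At genes of metabolism, redox control and other enzymes, 25 of 29 had BRG1, with 3.21- to 6.11-fold enrichment. They lay at Abhd2, Htatip2, Accsl, Msrb3, Elovl7, Lactb2, Sgms1, Pgm2, Fars2, Aopep, Erap1, Cyb5r3, Txn2, Nt5c2, Rpia, Azin1 (a pair of peaks), another Psat1 peak, Fads3, Ppp1r3c, Dnpep, Pfkfb3, Twnk, Dnase2b and Tmprss2. Sqle, a sterol synthesis enzyme, Txnip, an inhibitor of thioredoxin, Cutc and the other Cyb5r3 peak had none. At channels, transporters and membrane traffic genes, 8 of 13 had BRG1, namely Kcnn4, Trpm6, Atp2b4, Ano1, Tpcn2, Golga7b, Hps1 and Ankrd50. Slc20a1, Saraf, Vps53, the autophagy gene Atg5 and the other Ankrd50 peak had none.

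The last 26 peaks lay at genes with other or unassigned roles, 17 of them with BRG1. These 17 were at Ubtd1, Lsm4, Ccnf, Slc4a1ap, Vwa8, Tex35 (a pair of peaks), Cops8, Mvp, Wdr70, Ms4a15, Btbd16, D630003M21Rik, Gm50595, Gm41291 and further peaks at Prune2 and Sfi1. Without BRG1 were Cped1, Lrrc14, Zpld1, Babam2, Hfm1, Ncald, Klhl26, Atrnl1 and Nova1, the last of these 1134980 bp outside its gene. Slc20a1, Cped1, Nova1 and Bcl6 were the only 4 control-only sites in no other list.

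BRG1 of untreated control cells was thus at 15 of 16 KO-only sites (93.8%, interval 69.8 to 99.8%), 135 of 173 control-only sites (78.0%, 71.1 to 84.0%) and 10 of 15 shared sites (66.7%, 38.4 to 88.2%). The share was 50.5% over all control FOSL2 peaks at 48 h, and of the 188 strongest, as many as there were control FOSB peaks, 68.1% did (60.9 to 74.7%). BRG1 peaks cover 21.3 Mb, 0.784% of the genome up to the last genes of the chromosomes. The interval of the control-only sites lay above the share of all FOSL2 peaks and overlapped that of the strongest. The BRG1 peaks there were near the middle of their list by enrichment: their median fold was 3.08 at KO-only and 3.14 at control-only sites, beside 2.90 over the whole BRG1 list, and with only BRG1 peaks of a −log10 q of at least 5 the shares were 31.2% and 23.7%, beside 11.8% of all control FOSL2 peaks.

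FOSL2 was called at most of the sites that lacked a FOSB peak in Pbrm1 KO cells. The KO FOSL2 list held 138 of 173 control-only sites (79.8%, 73.0 to 85.5%), 14 of 16 KO-only sites and 13 of 15 shared sites, and the control FOSL2 list held 126 control-only, 13 KO-only and 12 shared sites. Of all control FOSL2 peaks, 89% were in the KO FOSL2 list, and of the 188 strongest 100% were. Of the 126 control-only sites that had control FOSL2, 119 were in it. In both FOSL2 lists lay 119 control-only sites, 19 were in the KO list alone, 7 in the control list alone and 28 in neither. The FOSL2 peaks at these sites stood high in their own list, at a median percentile of 86.9 in the KO list (10.9-fold, against 7.35-fold for the whole list) and 78.8 in the control list (8.07-fold, against 6.55-fold). At shared sites the median percentile was 99.4 in the KO list and 98.8 in the control list. BRG1 and KO FOSL2 occurred together at 111 control-only sites, BRG1 without KO FOSL2 at 24, KO FOSL2 without BRG1 at 27 and neither at 11. The strongest 3444 KO FOSL2 peaks, as many as the control list has, held 66.5% of the control-only sites.

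**Figure D3:**
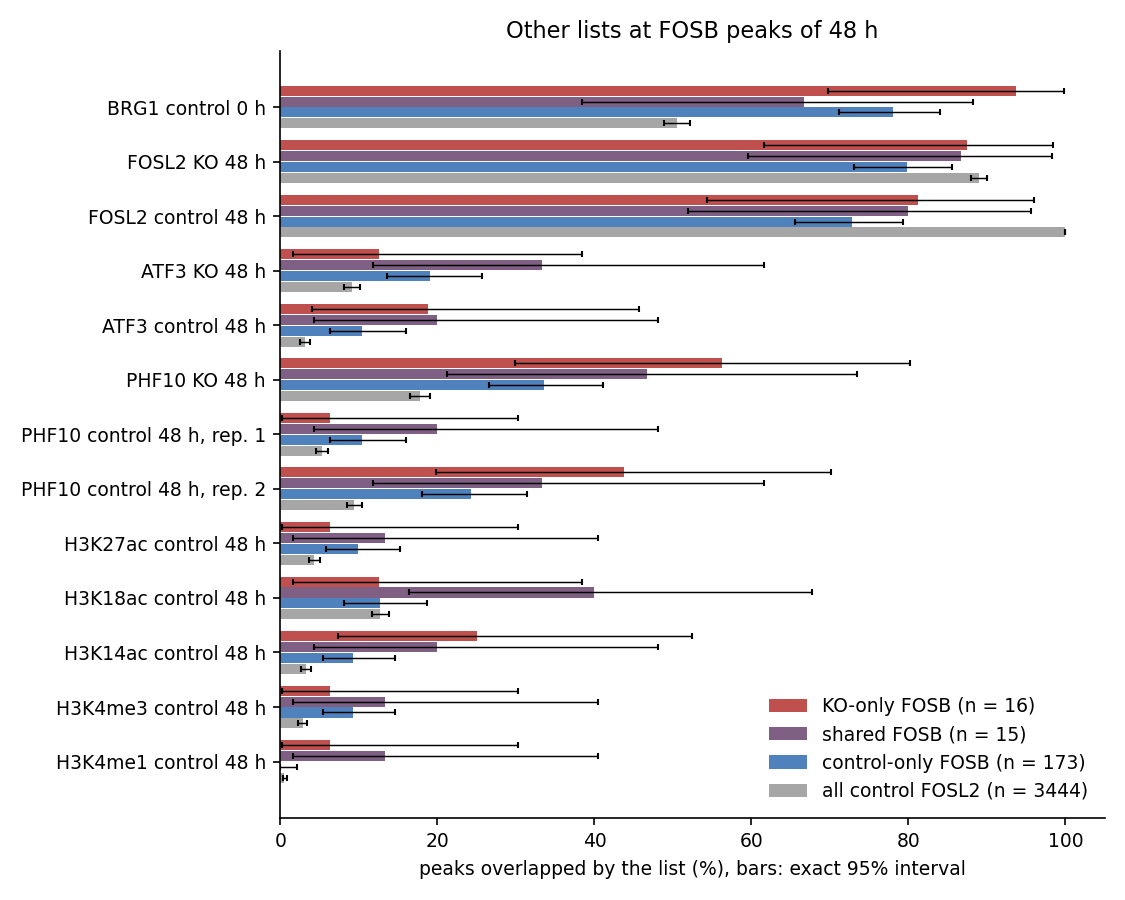
Share of KO-only, shared and control-only FOSB peaks, and of all control FOSL2 peaks, that overlap each other list (percent, with exact 95% intervals). BRG1 and FOSL2 stand at 66.7% or more of every FOSB class, and marks and ATF3 at 40% or less.

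ATF3, PHF10 and the marks were at fewer sites. ATF3 at 48 h overlapped 33 control-only sites in Pbrm1 KO cells and 18 in control cells, from lists of 144513 and 45716 peaks. These were 19.1% and 10.4% of the sites, beside 9.09% and 3.08% of all control FOSL2 peaks. PHF10 at 48 h overlapped 58 control-only sites in Pbrm1 KO cells, and 18 and 42 in the 2 control replicates, from lists of 158815, 43549 and 102434 peaks. These were 33.5%, 10.4% and 24.3% of the sites, beside 17.8%, 5.26% and 9.41% of all control FOSL2 peaks. Of the 188 strongest control FOSL2 peaks, 12.2% had ATF3 and 25.0% PHF10 in Pbrm1 KO cells at 48 h. The lists differ in length, and its part in these counts was not tested. H3K27ac overlapped 17 control-only sites at 48 h and H3K18ac 22, and within 1 kb of the site the counts were 62 and 106. On the site these were 9.83% and 12.7%, beside 4.30% and 12.7% of all control FOSL2 peaks and 6.91% and 22.3% of the 188 strongest. The H3K18ac share on the site was thus lower than that of the strongest FOSL2 peaks. Within 1 kb they were 35.8% and 61.3%, beside 18.5% and 42.1% of all control FOSL2 peaks and 25.5% and 53.7% of the 188 strongest. H3K4me3 at 48 h overlapped 16, with 21 within 1 kb, and H3K14ac at 48 h overlapped 16, with 32 within 1 kb. On the site both were at 9.25%, beside 2.82% and 3.19% of all control FOSL2 peaks and 4.79% and 5.32% of the 188 strongest. The count within 1 kb thus exceeded that on the site by more for H3K27ac and H3K18ac at 48 h than for H3K4me3.

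The marks at control-only sites differed by position. Of the 18 with a start within 2 kb, H3K27ac at 0 h marked 15, H3K4me3 at 0 h 12 and control ATF3 at 48 h 10. Of the 155 others H3K27ac marked 17, H3K4me3 6 and ATF3 8. Of all protein-coding genes, 63% had H3K4me3 at 0 h within 2 kb of a gene end, a wider measure than overlap with a site. The same split was not computed for other peaks near starts, so it is not shown to be particular to FOSB sites. BRG1 was at 12 of 18 sites near a start and 123 of 155 away from one, and KO FOSL2 at 12 near a start and 126 away from one. The 18 were Krt8, Srxn1, Rnf39, Adgrg1, Trib1, Tnfrsf12a, Erap1, Tspo, Kdm2a, Fads3, Pxn and Rin1 with BRG1, and Herpud1, Atg5, Lrrc14, Txnip, Tnfaip3 and Cyb5r3 without. Herpud1, Atg5, Lrrc14 and Txnip had neither BRG1 nor FOSL2, and all 4 had H3K4me3 and H3K27ac at 0 h and control ATF3 at 48 h.

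**Figure D4:**
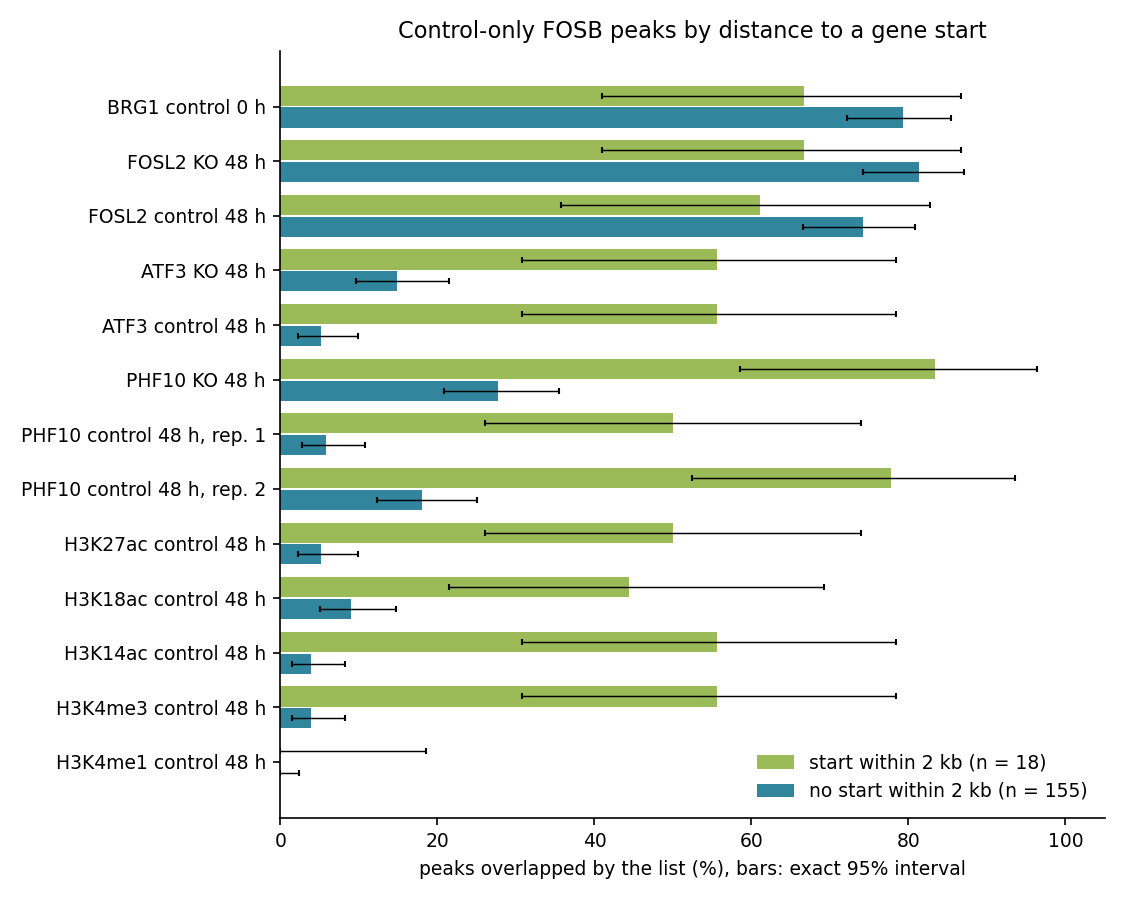
Share of control-only FOSB peaks overlapped by each list, for the 18 with a gene start within 2 kb and the 155 without (percent, with exact 95% intervals). ATF3, PHF10, H3K27ac, H3K18ac, H3K14ac and H3K4me3 reach higher shares near starts, and BRG1 and FOSL2 are at 61.1% or more in both sets.

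At promoter windows, 250 bases before to 50 bases after each RefSeq start, TGAGTCA or TGACTCA was found in 1 of 3 windows under KO peaks and 7 of 17 under control peaks, beside 5.20% of all 32851 windows. The windows are not separate sites, since the 3 lie under 2 KO peaks and the 17 under 14 control peaks, and some overlap. The whole of each window was searched, also the bases outside its peak. Of the 17, the match was in 6 of 9 windows with FOSL2 of either genotype and 1 of 8 without. The matches lay 102 and 45 bases before the start of Srxn1, 141 and 59 before Adgrg1 and 136 before Tnfaip3. A530046M15Rik, the start under the peak named for Gli3, had matches 216, 62 and 6 bases before it, the last of which runs past the printed line. The long noncoding RNA starts D730003I15Rik under the Atf3 peak, 4930471E19Rik under the Msrb3 peak and Gm32287 under the Cebpb peak had 1 each, at 11, 215 and 246 bases before the start. TGACGTCA was in 3 of 17 windows, all among the 8 without FOSL2, and in 1.79% of all windows. A single site, over the start of Atg5, gave the match in the windows of Atg5 and of the divergent Gm40637, 143 bases before the Gm40637 start. The other match lay 67 bases before Gm32287, in a part of the window outside the Cebpb peak. Under the FOSB peaks themselves, TGACGTCA without FOSL2 thus rests on 1 site, that of Atg5. A match is a description of these letters only, and peaks away from starts were not searched because no genome sequence was used here.

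Both FOSB lists were unevenly spread over the chromosomes. Chromosome 19 held 7 of 31 KO peaks (22.6%) and 40 of 188 control peaks (21.3%), and chromosome 15 held 4 KO peaks (12.9%) and 24 control peaks (12.8%). Chromosome 19 held 5.20% of KO FOSL2 peaks, 6.74% of control FOSL2 peaks, 5.76% of BRG1 peaks and 3.22% of protein-coding genes. No FOSB peak lay on chromosomes 18, X or Y. The background recovered from pileup and fold at chromosome 19 peaks had a median of 3.67 reads in Pbrm1 KO cells and 4.08 in control cells, while outside chromosomes 15 and 19 it was 2.44 in Pbrm1 KO cells and 2.60 in control cells. The recovered background was thus higher on chromosome 19 in both genotypes, and its part in the peak calls was not tested. Away from chromosomes 15 and 19, BRG1 was at 10 of 11 KO-only and 87 of 115 control-only sites (75.7%), and KO FOSL2 at 9 KO-only and 89 control-only sites.

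**Figure D5:**
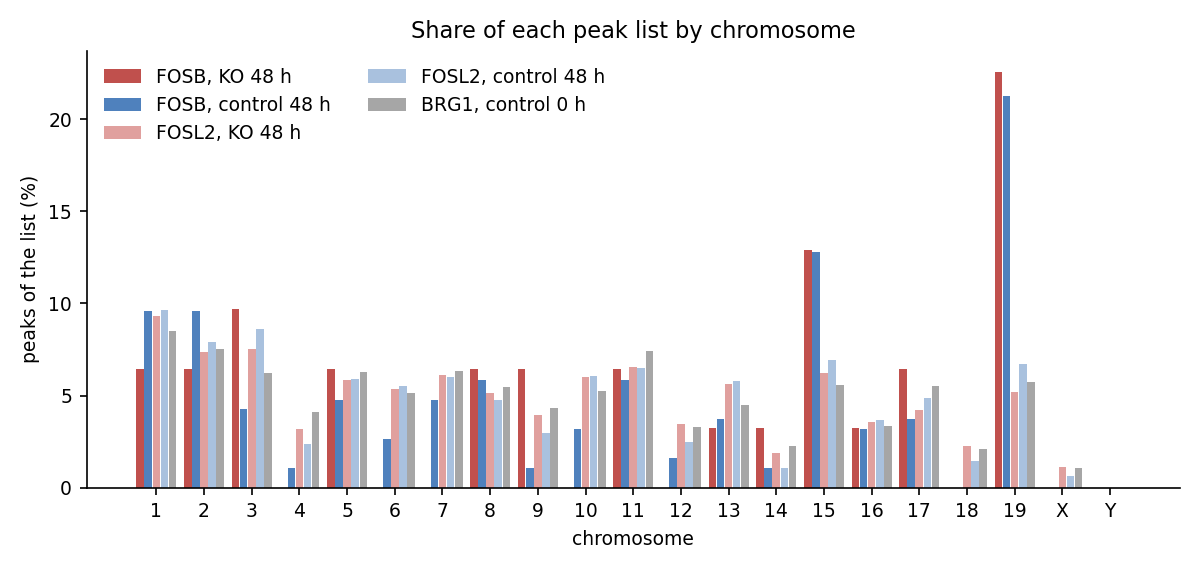
Share of each peak list (percent) on each chromosome, for FOSB and FOSL2 at 48 h in Pbrm1 KO and control cells and BRG1 in untreated control cells. On chromosome 19 FOSB stands at 22.6% in Pbrm1 KO cells and 21.3% in control cells, and FOSL2 and BRG1 at 6.74% or less.

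Few genes of the listed pathways had a FOSB peak in the gene or within 10 kb. Of all protein-coding genes, 0.0959% had one in Pbrm1 KO cells and 0.717% in control cells, 0.0548% only in Pbrm1 KO cells and 0.676% only in control cells. Of 20 AP-1, ATF and MAF genes, Mafk had one in Pbrm1 KO cells and none did in control cells. Of 23 genes of TGFβ signalling and feedback, none had one in Pbrm1 KO cells and Pmepa1 did in control cells (chr2:173266414-173266623, inside, 5.28-fold, BRG1 and FOSL2 of both genotypes). Ltbp3, with its KO-only peak, was not among the 23. Of 35 epithelial genes, none had one in Pbrm1 KO cells, and Krt8 and the plakophilin gene Pkp1 (chr1:135862353-135862656, 8738 bp away, 5.74-fold, BRG1) did in control cells.

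The lists of 35 mesenchymal genes and factors of the transition, 20 YAP and TEAD targets, 27 SWI/SNF subunits, 20 housekeeping genes and 22 genes that mark other cell types had none in either genotype. With 0 to 2 genes per list, the counts do not set any list apart from all genes. Snai1 lay 10067 bp from its peak, just outside the 10 kb, and Cldn4, a tight-junction claudin, lay 12309 bp from its peak (4.80-fold, BRG1, no FOSL2). FOSL2 was at 17.2% of all genes in Pbrm1 KO cells and 9.22% in control cells. In Pbrm1 KO cells it was at 13 AP-1 family, 10 TGFβ, 16 mesenchymal and 14 epithelial genes, and in control cells at 7, 8, 7 and 12 of the same lists. BRG1 was at 56.7% of all genes.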

How the data were processed

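The deposited ChIP-seq peak lists, 1 for each library, were the starting point. The submitters' processing notes list the mm10 build and, without settings, MACS3 3.0.0a7, Bowtie2 2.3.3, Partek 11.0.24.0325, fastp 0.19.5 and deepTools 3.5.1. Cells for FOSB, FOSL2 and the marks were crosslinked with formaldehyde only, and those for BRG1, PHF10 and ATF3 first with DSG, per the labels' protocols. The deposited values are the pileup signal, the −log10 of the p-value and of the q-value, and the fold enrichment ratio over the background, which the authors' peak caller gave per peak. Peak names pair 1 ChIP library with 1 input in each FOSB list, and no pooling is recorded.

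Contigs were left out (chromosomes 1 to 19, X and Y remain). Coordinates are as deposited, and whether starts count from 0 is not stated, which leaves 1 bp open. Genes (21887 protein-coding) and promoters came from RefSeq GRCm38.p6; a start was taken from the promoter table for 79.9% of genes and from either gene end for the others. Exons and introns were not assigned, no region was masked, and the motif count was run on promoter windows only. The background of a peak is (pileup + 1) / fold − 1. Peaks are named by gene, except 1 control-only peak that is counted but whose gene is not reported here, and full values are given for shared, KO-only, the 30 strongest control-only peaks (34 with ties) and peaks at list genes. Shares carry exact Clopper-Pearson 95% intervals. The overlap script was tested on simulated peaks. The members and gene lists were chosen with earlier results of these data known. Python 3.11.15, pandas 2.3.3 and SciPy 1.17.1 were used.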

Additional observations from a re-analysis of the deposited data

How the results depend on the processing

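Peak number, overlap and BRG1 shares were recomputed under stricter thresholds, other overlaps, with contigs and at other distances. The log2 ratio of peak number, the only value with a sign, stayed negative. Of the recomputed values, 97 stayed within their interval or within 1.5 times the count, and 13 moved. Some of the 97 could not move. The FOSB, BRG1 and KO FOSL2 lists hold no contig peaks. A limit of 2 on −log10 q removes no KO peak, since the lowest there is 2.49. Over FOSB peaks of at least 6-fold enrichment, BRG1 was at 100% of KO-only sites (5 of 5) and 71.1% of control-only sites. With BRG1 peaks of a −log10 q of at least 5, the shares were 31.2% of KO-only, 23.7% of control-only and 26.7% of shared sites, so the order of shared and control-only sites turned. With the control list reduced to 31 peaks, 35.5% of it was in the KO list. The strongest 3444 KO FOSL2 peaks, as many as in the control FOSL2 list, held 66.5% of control-only sites. Counting peaks within 50 kb of a gene gave 1 AP-1 family gene in Pbrm1 KO cells, and 2 AP-1 family, 2 mesenchymal and 6 epithelial genes in control cells, which turned the order of the AP-1 family counts. At 6-fold or more, a start within 2 kb was found at 2 of 10 KO peaks (20%, interval 2.52 to 55.6%) and 7 of 50 control peaks (14%, 5.82 to 26.7%). That is the opposite order to all peaks, but the intervals overlap. The 2 KO peaks, Dynll1 and Rtn4, are the same as among all KO peaks. A start within 10 kb was found at 22.6% of KO peaks and 28.7% of control peaks, and counting the starts of all genes gave 20.7% of control peaks. The limits on −log10 p and on high pileup were chosen after seeing the data and left the peak number ratio at -2.48 and -2.72. No paired analysis was possible because each genotype has 1 FOSB library at 48 h, so no library could be left out either. Depth is unknown, which limits any reading of missing peaks.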
